A study of Mus musculus with 2 samples.

Results

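The genes described here are 7 genes of cholesterol synthesis and its control, out of 21938 protein-coding genes of the GENCODE M21 annotation. They were chosen by name: the enzyme genes Hmgcs1, Fdft1, Sqle, Cyp51 and Dhcr7, and the regulator genes Srebf2 and Insig1. All 7 were found in the annotation. For each gene, DNase-seq peaks and footprints within 500 bp of any annotated transcription start were collected, together with peaks further out in the gene body and its 50 kb flanks. DNase I cuts DNA that is open in chromatin, so a peak is a stretch with many cuts, and a footprint is a short protected stretch inside such a region, as a bound protein can leave.

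Nuclei came from the cerebral cortex, left side, of B6CASTF1/J females at an age of 10 days, the first-generation cross of C57BL/6J with CAST/EiJ. The 2 libraries, biological replicates 1 and 2, formed 1 group with no stated treatment, so no condition was compared. The labels number the animals separately but give both the same donor identifier of the strain, and the spread between libraries joins animal, tissue and technical variation. Each mouse carries 1 genome copy from CAST/EiJ, which differs from the mm10 reference, and the 2 copies were not separated here. In bulk tissue, a promoter open in few cells and one less often open in all cells cannot be told apart.

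Cholesterol is built from acetyl-CoA through mevalonate and squalene in a long chain of enzymes. The brain makes nearly all of its own cholesterol, because little crosses the blood-brain barrier, and demand rises in early life as neurons extend processes and glia prepare myelin. When sterols are scarce, the transcription factor SREBP-2 is released from the endoplasmic reticulum, enters the nucleus and binds sterol regulatory elements beside the genes of this chain, commonly together with NF-Y at CCAAT boxes and with Sp1 at GC boxes.

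The promoter sequences are shown first, because the footprints and motif matches described further on are positions in them. Each is the strongest promoter peak of the gene, at most 300 bases of it, with annotated untranslated bases left out. They were read from the GRCm38.p6 assembly, the genome of mm10, and run 5′ to 3′ on the strand of the gene. Capitals mark bases that lay inside footprints of both libraries.
Hmgcs1 promoter (chr13:119690081-119690378, plus strand): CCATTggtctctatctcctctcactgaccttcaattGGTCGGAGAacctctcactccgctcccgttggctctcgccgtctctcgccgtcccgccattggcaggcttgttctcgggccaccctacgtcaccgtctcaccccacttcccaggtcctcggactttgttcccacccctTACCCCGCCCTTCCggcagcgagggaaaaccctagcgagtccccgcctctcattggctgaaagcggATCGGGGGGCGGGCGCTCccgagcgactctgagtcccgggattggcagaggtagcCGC
Sqle promoter (chr15:59314801-59315080, plus strand): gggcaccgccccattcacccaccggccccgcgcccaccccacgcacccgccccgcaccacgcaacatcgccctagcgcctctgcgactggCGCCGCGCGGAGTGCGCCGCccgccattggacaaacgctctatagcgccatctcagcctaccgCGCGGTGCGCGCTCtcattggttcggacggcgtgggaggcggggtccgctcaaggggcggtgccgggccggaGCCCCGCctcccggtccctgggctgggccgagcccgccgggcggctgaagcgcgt
Cyp51 promoter (chr5:4104747-4104880, minus strand): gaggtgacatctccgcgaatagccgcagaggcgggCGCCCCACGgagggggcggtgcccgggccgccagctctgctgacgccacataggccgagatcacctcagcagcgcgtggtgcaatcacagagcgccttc
Dhcr7 promoter (chr7:143822843-143823120, plus strand): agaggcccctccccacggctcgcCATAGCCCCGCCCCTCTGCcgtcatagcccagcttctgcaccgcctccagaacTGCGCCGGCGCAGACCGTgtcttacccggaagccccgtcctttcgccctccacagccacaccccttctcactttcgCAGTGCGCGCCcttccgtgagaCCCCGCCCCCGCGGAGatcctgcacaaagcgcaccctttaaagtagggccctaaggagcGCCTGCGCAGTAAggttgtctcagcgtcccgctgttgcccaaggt
Srebf2 promoter (chr15:82146981-82147180, plus strand): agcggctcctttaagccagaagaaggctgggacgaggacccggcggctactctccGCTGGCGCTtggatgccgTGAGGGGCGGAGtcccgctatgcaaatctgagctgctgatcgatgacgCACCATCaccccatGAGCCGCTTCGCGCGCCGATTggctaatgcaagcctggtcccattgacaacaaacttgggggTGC
Insig1 promoter (chr5:28071101-28071362, plus strand): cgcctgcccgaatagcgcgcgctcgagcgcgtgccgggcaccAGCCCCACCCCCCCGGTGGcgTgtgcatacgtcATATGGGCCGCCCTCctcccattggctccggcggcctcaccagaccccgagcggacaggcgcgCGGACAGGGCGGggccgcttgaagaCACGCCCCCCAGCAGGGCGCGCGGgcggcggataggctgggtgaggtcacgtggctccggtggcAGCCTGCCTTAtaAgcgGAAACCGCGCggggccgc
The Hmgcs1 window held 49 such bases, Sqle 41, Cyp51 9, Dhcr7 77, Srebf2 52 and Insig1 93. Among these printed stretches, which do not include Fdft1, Insig1 therefore had the most bases protected in both libraries and Cyp51 the fewest. The Cyp51 sequence is also the shortest at 134 bases. Bases left out as untranslated were not counted, and those of the Cyp51 peak held a further footprint found in both libraries.

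The strongest Fdft1 peak lay in an annotated 5′ untranslated exon. Only the 3 footprints inside it that were found in both libraries are printed, as called in replicate 1, with capitals again for bases protected in both.
Fdft1 footprint A (chr14:63178009-63178024, minus strand): ctccgGCTTCCGATTG
Fdft1 footprint B (chr14:63178061-63178088, minus strand): GTGTTCGCTGGCTGCTTTCCAGCTCTCC
Fdft1 footprint C (chr14:63178133-63178154, minus strand): GCATGCGCCTCGCTCGCTGCCA
Relative to the start at position 63177797, their first bases lay at -227, -291 and -357 bp. Footprints A and B touched CCAAT boxes, while footprint C touched no motif that was searched.

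Each of the 7 genes had a peak near a start in both libraries, in the stricter of the 2 deposited peak lists of each, against 55.2% of all protein-coding genes. All 7 also passed with the larger lists (61.0% of coding genes), in windows of 250 bp (53.6%) or 1 kb (56.9%), among the stronger 50% of peaks (48.9%), and in replicate 1 alone (56.0%) or replicate 2 alone (59.0%). Counting only the outermost start left 6, without Fdft1, beside 49.5% of coding genes. Among the 8774 coding genes of the same classes of CpG content around the own start as the members, 60.1% had one. All genes of these classes were pooled, whatever the number of members in each. The lowest class, decile 1, entered only through the outermost start of Fdft1, with a ratio of observed to expected CpG of 0.111. Since Fdft1 had no peak there, the 60.1% is not a close match to the open promoters of the members. Since more than 1 in 2 coding genes passed this rule, the count of 7 alone sets these genes little apart, and their signal is given beside it. The signal is the authors' value for a peak, scaled within each library on a scale that is not given in the sources used here, and the promoter signal of a gene is that of its strongest peak near a start. The median over the 7 genes was 7.35, beside 2.89 over the 12105 coding genes with a promoter peak in both. All 7 lay above that median and 6 lay above the 75th percentile of 4.67. The members were picked as genes of interest with earlier results of these data known, so these positions are given as a description.

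Hmgcs1 (ENSMUSG00000093930.2, chr13:119690379-119708260, plus strand) encodes the cytosolic HMG-CoA synthase, which acts early in the chain, before mevalonate is made. Its promoter signal was 6.12 in replicate 1 and 9.77 in replicate 2, a mean of 7.95 ± 2.58 (SD, n = 2) at percentile 95.6 of coding promoters with a peak in both. The single shared peak spanned chr13:119690021-119690440 in replicate 1 and chr13:119690041-119690380 in replicate 2, so replicate 2 had the narrower peak with the higher signal.

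Fdft1 (ENSMUSG00000021273.10, chr14:63145150-63179578, minus strand) encodes squalene synthase, the first enzyme committed to sterols. It had the highest promoter signal of the 7 genes, 10.5 in replicate 1 and 13.6 in replicate 2, a mean of 12.0 ± 2.17 (SD, n = 2). That was rank 21 of 12105, at percentile 99.8. The peak, chr14:63177941-63178180 in both libraries, did not lie at the start of the gene's longest extent but 1517 bp inside it. Relative to the start at 63177797, it was centred at -264 bp. Around the outermost start itself neither stricter list had a peak. A weak second peak near an internal start, chr14:63164730-63164779 with a signal of 0.644, was listed in replicate 2 only, although the larger list had one there in replicate 1 too, at 0.484.

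Sqle (ENSMUSG00000022351.14, chr15:59315077-59331192, plus strand) encodes squalene epoxidase, which adds oxygen to squalene. Its signal was 3.24 in replicate 1 and 6.58 in replicate 2, a mean of 4.91 ± 2.36 (SD, n = 2) at percentile 77.3. Replicate 2 was thus 2.03-fold higher, the largest ratio between the libraries among the 7 genes. Its single shared peak ended just past the start, at chr15:59314801-59315080 in replicate 1.

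Cyp51 (ENSMUSG00000001467.5, chr5:4081145-4104746, minus strand) encodes lanosterol 14-alpha-demethylase. It had the lowest signal of the 7, 2.52 in replicate 1 and 4.09 in replicate 2, a mean of 3.30 ± 1.11 (SD, n = 2) at percentile 57.1. It carried 2 shared peaks. The stronger, chr5:4104641-4104880 in replicate 1, straddled the outermost start. The second, chr5:4104361-4104620, lay in an exon, with 1.91 in replicate 1 and 2.36 in replicate 2, and differed less between the libraries than the first.

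Dhcr7 (ENSMUSG00000058454.15, chr7:143823145-143848410, plus strand) encodes 7-dehydrocholesterol reductase, which completes cholesterol. Its signal was 5.06 in replicate 1 and 7.79 in replicate 2, a mean of 6.43 ± 1.93 (SD, n = 2) at percentile 89.5. In the stricter lists, Dhcr7 was the only member with 3 shared promoter peaks, while in the larger lists Cyp51 had 3 too. The strongest, chr7:143822821-143823120 in both libraries, covered the start of Nadsyn1 at 143822849 and ended before the Dhcr7 start at 143823145. Nadsyn1 is a coding gene of NAD synthesis that starts 296 bp from Dhcr7 on the other strand. That peak therefore cannot be assigned to 1 of the 2 genes. The other shared promoter peaks of Dhcr7 lay over 6 kb further in, at internal starts. The one at chr7:143829521-143829740 had 2.39 in replicate 1 and 3.93 in replicate 2, and the one at chr7:143830041-143830240 had 3.94 and 6.77. The farthest of these internal peaks therefore reached more signal than the main Cyp51 peak in both libraries.

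Srebf2 (ENSMUSG00000022463.8, chr15:82147181-82205379, plus strand) encodes SREBP-2 itself. Its signal was 6.45 in replicate 1 and 10.9 in replicate 2, a mean of 8.67 ± 3.13 (SD, n = 2) at percentile 97.3, second to Fdft1 among the 7. The peak covered the first start, chr15:82146981-82147240 in replicate 1. A weak second peak in an intron, chr15:82147807-82148035, had 0.796 in replicate 1 and 1.08 in replicate 2 and held no footprint in either library.

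Insig1 (ENSMUSG00000045294.11, chr5:28071363-28078662, plus strand) encodes an endoplasmic reticulum protein that holds SREBP in place when sterols are plentiful. Its signal was 5.19 in replicate 1 and 9.51 in replicate 2, a mean of 7.35 ± 3.06 (SD, n = 2) at percentile 93.7. Its single shared peak, chr5:28071121-28071380 in replicate 1, is flanked by the lincRNA gene Gm26608, which starts 258 bp away on the other strand, so this peak too is shared by 2 genes.

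**Figure D1:**
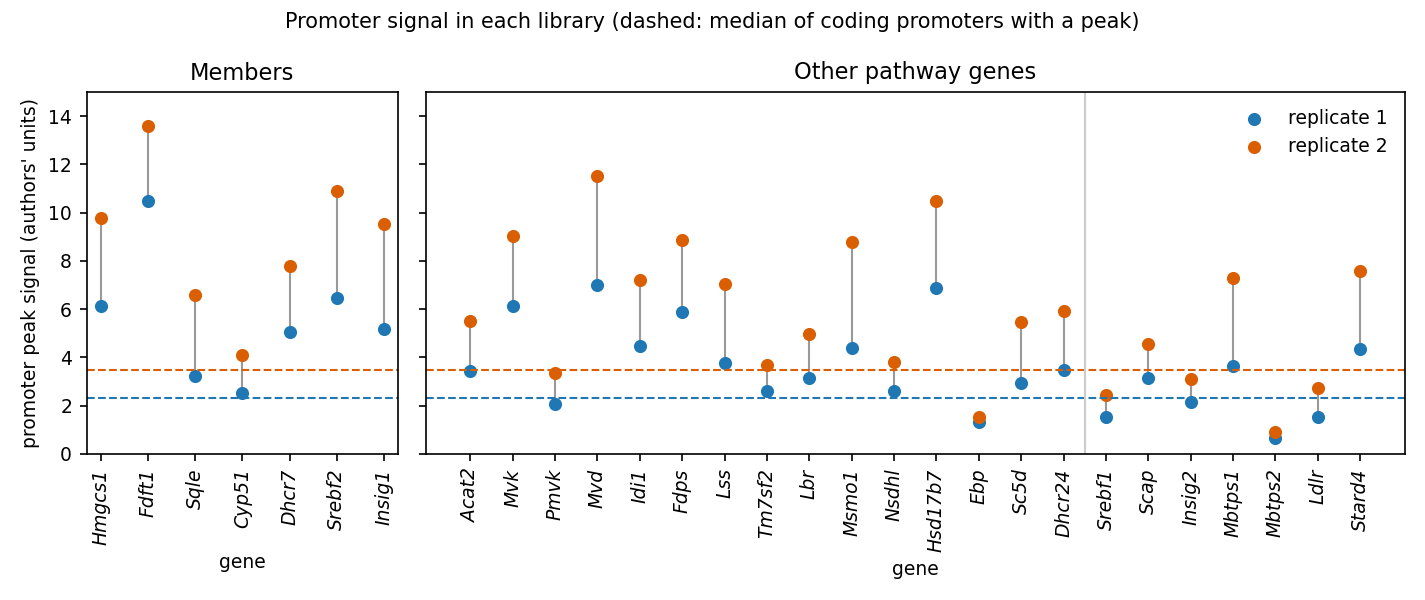
Promoter peak signal in the authors' units (y axis) for the 7 genes and for 22 of the 23 other genes of the pathway (x axis), with 1 point per library and dashed lines at each library's median over coding promoters with a peak in both. A vertical line parts enzymes from sensing and uptake genes; every pair of points has replicate 2 on top, and Fdft1 is the highest gene of the plot.

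The 7 genes had the same order in both libraries: Fdft1, Srebf2, Hmgcs1, Insig1, Dhcr7, Sqle and Cyp51 from high to low. Every signal was a whole multiple of 1 step per library, and a counting error was computed as if 1 step were 1 cut, which is an assumption. Of the 6 neighbouring pairs in the order, 4 differed beyond their 95% counting interval in replicate 1 and 5 in replicate 2, and 3 did so in both. Those were Fdft1 over Srebf2 (1.63-fold in replicate 1 and 1.25-fold in replicate 2), Dhcr7 over Sqle (1.56-fold and 1.18-fold) and Sqle over Cyp51 (1.29-fold and 1.61-fold). The other 3 pairs, from Srebf2 down to Dhcr7, each lay within counting error in 1 of the libraries.

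All 7 genes were higher in replicate 2, with log2 ratios of replicate 2 over replicate 1 from 0.37 for Fdft1 to 1.02 for Sqle and a median of 0.70. This direction was shared by 97.3% of all coding promoters with a peak in both, whose median was 0.56. Counted in steps, which drops the scaling of each library, the median was 0.57 for the 7 genes and 0.43 over all coding promoters. The libraries thus differed across the genome, and the cause was not tested.

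**Figure D2:**
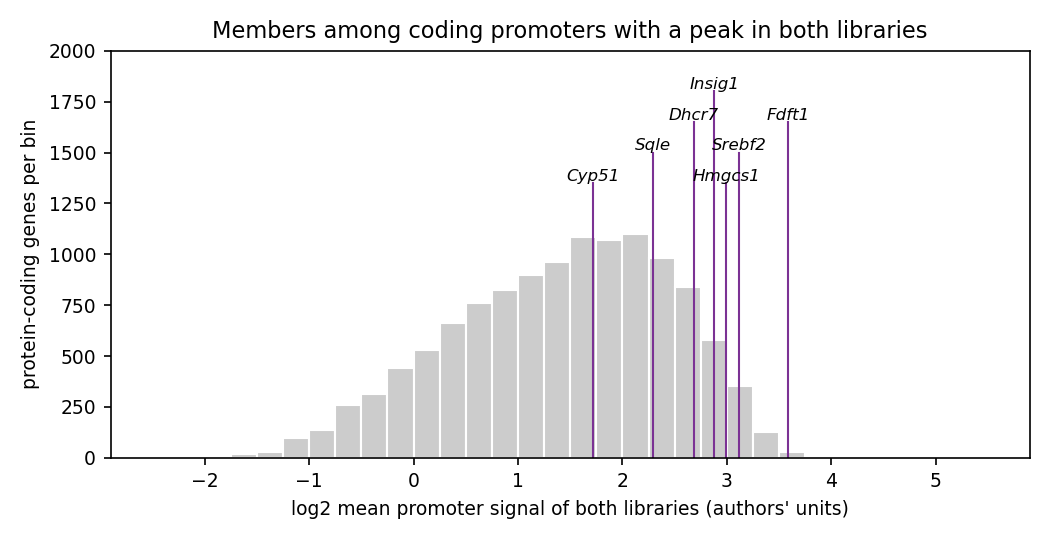
Histogram of the log2 mean promoter signal of both libraries (x axis) over the 12105 protein-coding genes with a promoter peak in both (y axis, genes per bin), with a vertical line for each of the 7 genes. Cyp51 sits near the middle of the distribution and Fdft1 in its far right tail.

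The rest of the chain was described with a list of 16 further enzymes and 7 genes of sterol sensing and uptake. All 23 of 23 had a promoter peak in both libraries, again against 55.2% of coding genes. The enzymes had a median signal of 5.04, with 14 of 16 above the median of coding promoters, and the sensing and uptake genes 2.63, with 3 of 7 above it. Enzymes held the highest places. Mvd, the mevalonate diphosphate decarboxylase, had 6.99 in replicate 1 and 11.5 in replicate 2. Hsd17b7, the 3-ketosteroid reductase of the late steps, had 6.87 and 10.5. The only member above both in both libraries was Fdft1. The lowest of the list was Mbtps2, named after its values were seen, which encodes the site-2 protease that cuts SREBP free; it had 0.657 and 0.917.

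The tissue label was compared with marker genes. A promoter peak in both libraries was found for 4 of 6 markers of cortex and neurons, 1 of 3 of astrocytes, 2 of 3 of the oligodendrocyte lineage, 1 of 3 of microglia and 1 of 3 of endothelium and mural cells. None of 3 markers of other brain regions and none of 3 liver markers had one. The tissue holds several cell types, and their shares in the promoter signal of the 7 genes were not tested.

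Footprints were counted within 500 bp of every start. Around the 7 genes there were 65 in replicate 1, of which 44 overlapped a footprint of replicate 2 (67.7%, 95% Wilson interval 55.6 to 77.8). In replicate 2 there were 63, of which 45 overlapped one of replicate 1 (71.4%, 59.3 to 81.1). The shares near all coding starts were 58.2% and 56.7%. Inside shared peaks the members' shares were 77.6% and 71.7%, and those of all coding genes 66.1% and 64.6%, which lie inside the members' intervals of 64.1 to 87.0 and 58.4 to 82.0. Neighbouring footprints share a promoter, so these intervals, which cover counting error only, are too narrow.

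The genes differed among themselves. In Insig1 all 8 footprints of replicate 1 and 8 of 9 of replicate 2 were found in both libraries. In Dhcr7 this held for 11 of 12 in replicate 1 and 11 of 16 in replicate 2. Sqle stood at the other end in replicate 1, with 3 of 9, while all 3 of its footprints in replicate 2 were among those shared. Fdft1, which had the highest signal, shared 4 of 9 in replicate 1 and 4 of 7 in replicate 2. These counts take in footprints outside its shared peak, some of them near an internal start. Inside that peak Fdft1 shared 3 of 5 in replicate 1 and 3 of 4 in replicate 2. The intervals of single genes are wide. In replicate 1 that of Sqle ran from 12.1 to 64.6% and that of Insig1 from 67.6 to 100%, so this pair, picked as the farthest apart, did not overlap, while in replicate 2 it did (43.9 to 100% and 56.5 to 98.0%).

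**Figure D3:**
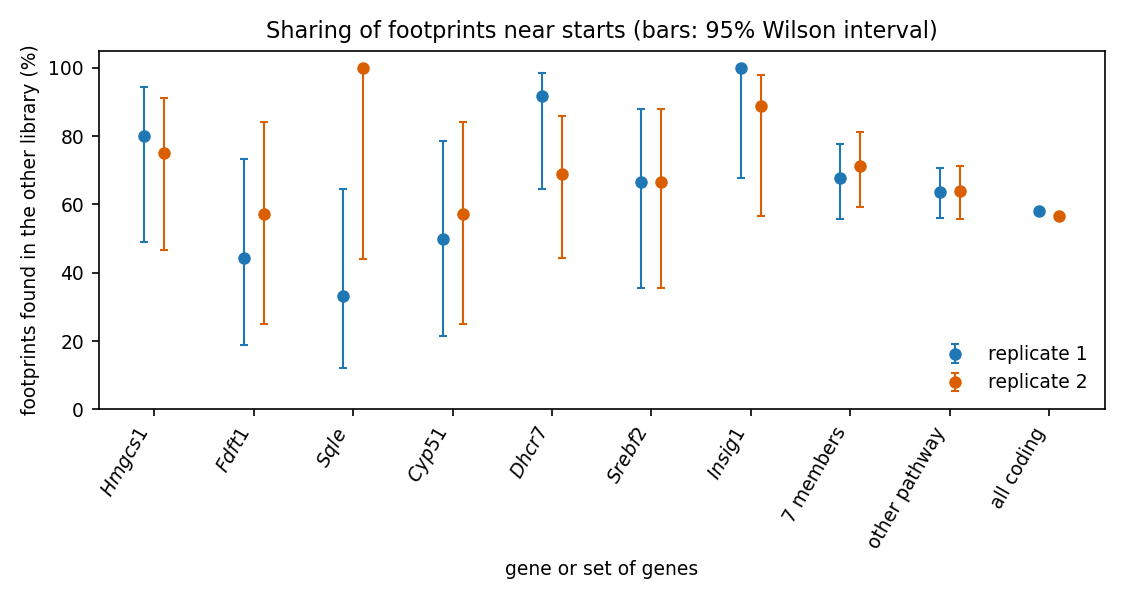
Percent of footprints within 500 bp of a start that overlap a footprint of the other library (y axis), for each of the 7 genes, all 7 together, the other pathway genes and all coding genes (x axis), 1 point per library with 95% Wilson intervals. Most intervals of single genes are wide, and the 7 genes together sit at 67.7% and 71.4% beside 58.2% and 56.7% for all coding genes.

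The promoter windows were also read for their letters, in 300 bp centred on the strongest peak of each gene. Their GC content ran from 61.0% in Fdft1 to 76.7% in Sqle, beside a median of 64.0% over 10894 coding promoter windows. Their ratio of observed to expected CpG ran from 0.851 in Hmgcs1 to 1.05 in Fdft1, beside a median of 0.812, so all 7 lay above the median in CpG. Fdft1 shows how much the choice of start matters: in 1 kb around its outermost start the ratio was 0.111, while at the peak it was the highest of the 7. No base of the strongest peak of any of the 7 genes was soft-masked as repeat or low complexity in the assembly.

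Motifs were searched on both strands as plain letters, and a match is a description of the sequence, not of binding. The sterol regulatory element TCACNCCAC had 1 match, in Hmgcs1, beside 1.06% of coding windows with a match. It lay at -165 bp from the start, and no footprint of either library touched it, although a footprint of replicate 2 ended just before it. Its shorter form CACNCCAC, which lies within the longer one, matched in Hmgcs1, Sqle and Insig1, beside 6.06% of windows. Of these 3 matches, only that in Insig1, at -205 bp from the start, touched footprints, in both libraries. A looser form, TCACCNCA, was added after the promoter sequences were seen; it matched in Hmgcs1, Cyp51 and Srebf2, beside 3.62% of windows. The Hmgcs1 match is the same site as before. In Cyp51 it lay at -39 bp and touched no footprint. In Srebf2 it lay at -74 bp, and footprints of both libraries covered its first bases only.

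CCAAT, the box bound by NF-Y, was found in 6 of the 7 windows, all but Dhcr7, beside 40.8% of coding windows. Hmgcs1 had 5 matches and Fdft1 4, while 5.97% of coding windows had 3 or more. Of the 14 matches in the 7 genes, 8 touched a footprint in replicate 1, 8 in replicate 2, 6 in both and 4 in neither. Over all coding windows 27.7% of CCAAT matches touched a footprint in replicate 1, 29.6% in replicate 2 and 19.2% in both. Here and for the motifs below, these windows were not matched to the members in promoter signal. Whether the higher signal of the members plays a part in such shares was not tested. The 6 touched in both were those of Hmgcs1 at -296, -265 and -73 bp, of Fdft1 at -265 and -215 bp and of Srebf2 at -47 bp from the nearest start. In Sqle, Cyp51 and Insig1 no CCAAT match was touched in both.

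The GC box GGGCGG, bound by Sp and KLF factors, was found in 6 of 7 windows, all but Fdft1, beside 69.0% of coding windows, so it was common everywhere. Of its 17 matches, 11 touched a footprint in replicate 1, 13 in replicate 2 and 10 in both, beside 52.7%, 61.3% and 45.7% of matches over all coding windows. Both matches in Hmgcs1, both in Dhcr7 and all 3 in Insig1 were touched in both libraries. In Sqle, 3 of 5 were touched in neither. Fdft1 thus combined 4 CCAAT boxes with no GC box, and Dhcr7 had GC boxes with no CCAAT box in this window, although over all shared promoter peaks CCAAT was found in 7 of 7 genes (46.8% of coding genes), a search added after the data were seen.

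Of the other motifs, the NRF1 palindrome, GCGC and GCGC around any 2 bases, had 2 matches, both in Dhcr7, beside 16.4% of windows with a match, and footprints of both libraries touched each of them, at -225 and -71 bp from the start. The E-box CACGTG matched once, in Insig1, and touched no footprint, beside 11.3% of windows. TGACG, the core of the CREB site, was found in all but Sqle, beside 35.7% of windows, and in 4 of 7 windows set at the own start. Of its 6 matches, 1 touched footprints of both libraries, that of Insig1, beside 32.3% of matches over all coding windows. The full site TGACGTCA, which contains it, was found in none of the 7, beside 4.23%. The YY1 motif, AAGATGG directly followed by CGGC (1.75% of windows) and the TATA box TATAAA (4.16%) were found in none of the 7 windows.

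**Figure D4:**
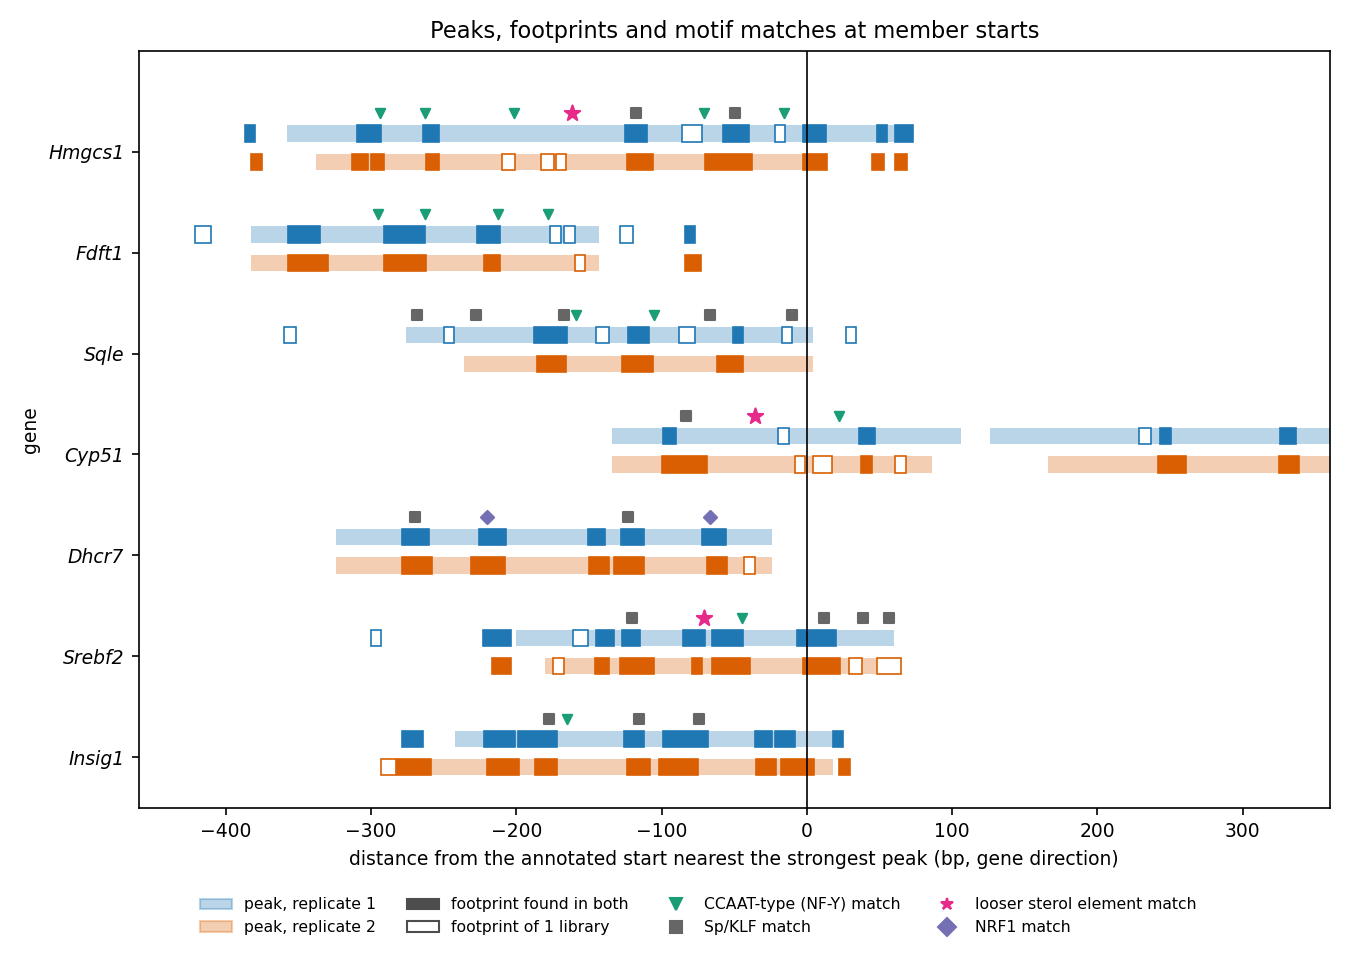
Peaks (pale bars), footprints (boxes, filled where found in both libraries) and motif matches (symbols) of the 7 genes by distance in bp from the annotated start nearest the strongest peak (x axis), 1 row per gene with replicate 1 above replicate 2. CCAAT matches stand 5 times over Hmgcs1 and 4 times over Fdft1, and the filled boxes of Insig1 repeat from library to library; for Cyp51 the second peak is seen at the right edge, and further peaks of Fdft1, Dhcr7 and Srebf2 lie outside the range shown.

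Open sites away from the starts were counted next. In the gene bodies and 50 kb flanks there were 12 peaks over 1 kb from any annotated start that were found in both libraries, 2 of them in a gene body. The counts were 3 for Srebf2, 3 for Insig1, 2 for Hmgcs1, 2 for Fdft1, 1 for Sqle, 1 for Dhcr7 and 0 for Cyp51. The median was 2 per gene, as over all coding genes, and 1.49 per 100 kb, beside 1.14. Some counts moved with the list or distance: Srebf2 had 5 in either library alone, Dhcr7 had 2 in replicate 2 alone, and Hmgcs1 had 0 when peaks had to lie over 2 kb from a start. By the first count, 6 of the 7 had at least 1, beside 73.8% of coding genes, and 2 had more than the median gene, beside 35.5%. Of the 12 peaks, 7 lay in introns, 2 in exons and 3 between genes, and for only 5 was the nearest coding start that of the member.

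These distal peaks were weak beside the strongest promoter peak of each gene. Their mean signals ran from 0.505 to 1.40, and their median was 1.04, beside 0.897 over all 31956 shared distal peaks. All 12 lay below 3.30, the lowest promoter signal of the 7 genes, which counts only the strongest peak of a gene. The second Srebf2 promoter peak, with 0.796 in replicate 1 and 1.08 in replicate 2, lay within the distal range. Replicate 2 was higher at 10 of the 12, beside 80.0% of all shared distal peaks, and at 7 of 7 promoters. Whether the libraries differ more at promoters than at these sites was not tested. In 10 of the 12, a footprint was found at the same place in both libraries, beside 76.0% of all shared distal peaks, so neither count sets the sites near these genes apart.

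The strongest distal peak of each gene was as follows. For Sqle it was chr15:59291561-59291760, in an exon of the lincRNA Gm36617, with 1.23 in replicate 1 and 1.57 in replicate 2. The nearest annotated start was that of the pseudogene Zfp572, 15287 bp away, and the nearest coding start was that of Sqle itself, 23416 bp away. For Fdft1 it was chr14:63195881-63196052, with 1.05 and 1.66, between genes and 2111 bp from the start of Neil2, a DNA glycosylase gene. For Srebf2 it was chr15:82236741-82236866, with 1.19 and 1.54, in an intron of Cenpm and 3273 bp from the start of Gm49503. The Hmgcs1 peak, chr13:119754381-119754496, had 1.07 and 1.03 and lay in an intron of Nim1k, 1443 bp from a start of that gene. The Insig1 peak, chr5:28094061-28094213, had 0.913 and 0.872, between genes and 19471 bp from an Insig1 start. The Dhcr7 peak, chr7:143805447-143805534, had 0.609 and 0.644, in an intron of Nadsyn1. Only for Sqle and Insig1 was the member the nearest coding gene, and Cyp51 had no such peak.

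**Figure D5:**
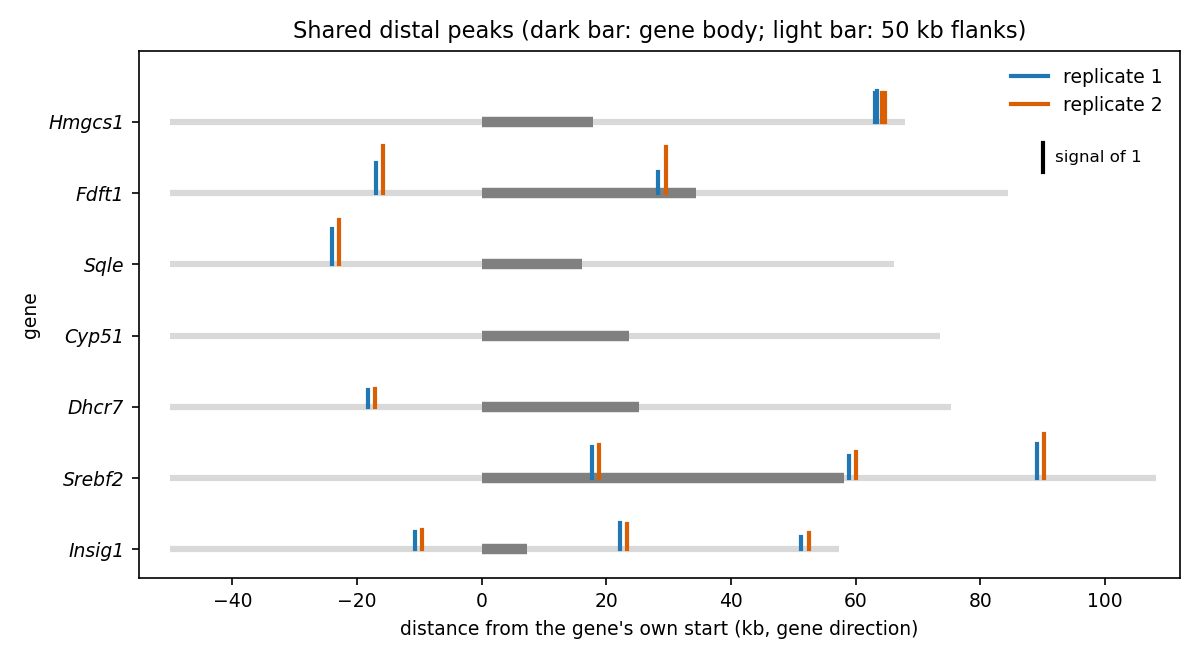
Shared peaks over 1 kb from any start (vertical bars, height in proportion to the signal, with a scale bar) by distance in kb from each gene's own start (x axis), 1 row per gene, with the gene body in dark grey and its 50 kb flanks in light grey. Srebf2 and Insig1 have 3 peaks each and Cyp51 none.

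The gene bodies themselves held 2 distal peaks. In Fdft1, chr14:63150599-63150656 in an intron had 0.747 in replicate 1 and 1.63 in replicate 2. No other of the 12 had as wide a gap between libraries. In Srebf2, an intronic peak 18310 bp downstream of the start had 1.08 in replicate 1 and 1.16 in replicate 2. All 3 footprints of replicate 1 in it were found in both libraries. It is printed because, of the 2 distal peaks in gene bodies, it had the closer signals in the 2 libraries. Capitals mark bases protected in both.
Srebf2 intronic peak (chr15:82165381-82165600, plus strand): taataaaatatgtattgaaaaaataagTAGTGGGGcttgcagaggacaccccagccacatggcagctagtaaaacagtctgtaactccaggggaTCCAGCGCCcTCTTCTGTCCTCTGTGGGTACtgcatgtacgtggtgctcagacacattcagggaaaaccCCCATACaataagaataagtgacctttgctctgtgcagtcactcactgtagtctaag
Of its bases, 47.3% were soft-masked as repeat or low complexity in the assembly, beside a median of 0 over all shared distal peaks, and 1.59% of those peaks were masked over more than 50% of their length.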

How the data were processed

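DNase-seq peaks and footprints of 2 libraries were analysed. Per the file descriptions deposited with the data, each library's lists were made from its own filtered alignments on mm10, and replicates were not pooled. The sources used here name no aligner, caller, version or threshold. Peak signal, as deposited, is 1 value per peak scaled by the authors; all values were whole multiples (within 0.01) of 0.00692 in replicate 1 and 0.00758 in replicate 2. If 1 step is 1 cut per M (mega) tags, depths were 145 and 132 M. The p-value column of the deposited footprints is 0.01 throughout, so footprints were used by position only. The authors' FDR values (a q-value of the cut rate) are listed only under 0.05.

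The stricter lists held 60071 and 70563 peaks, the larger ones 109563 and 121943, and the footprint lists 212785 and 224029. The stricter lists were used unless stated. Features counted as shared from 1 bp of overlap, computed with Python 3.11.15 and numpy 2.4.6 and plotted with matplotlib 3.10.9, and the code was tested on simulated data. Intervals are 95% Wilson or counting intervals and cover counting error only. With 1 group of 2 libraries no test between samples was made.

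The 7 genes, the pathway and marker lists and the motifs were chosen with earlier results of these data known. Named were all 7 genes, the 3 strongest other pathway genes (1 of them is not reported here), the strongest distal peak of each gene and genes sharing a promoter peak; other names are marked. The alternatives were the larger lists, other windows, overlaps and distances, the own start, signal in steps and each library alone.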

Additional observations from a re-analysis of the deposited data

How the results depend on the processing

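The count of genes with a promoter peak in both libraries remained 7 with the larger lists, in windows of 250 bp or 1 kb and among the stronger 50% of peaks, and was 6 at each gene's own start, where Fdft1 had none. For the other pathway genes it was 23, or 21 at the own start and 22 among the stronger 50%. Leaving out 1 library gave 7 to 7 members, 23 to 23 pathway genes, a median promoter signal of 5.19 to 9.51 instead of 7.35, and 14 to 17 distal peaks. The median log2 ratio of the libraries moved from 0.70 to 0.57 in steps. The 12 distal peaks became 3 with 10 kb flanks, which cover less of the genome, and 24 with the larger lists, which hold more peaks. The share of footprints found in both moved from 67.7% to 55.4% with a reciprocal overlap of 50%. The single TCACNCCAC match became 0 when only footprints extended by 5 bp were searched. The looser TCACCNCA and the search of every shared promoter peak were added after the data were seen. No paired analysis was possible because the libraries form only 1 group. With n = 2, a scale of the signal that is not given and depth known only under an assumption, small differences between genes are not resolved.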

Other observations

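In the 3 promoters with TCACCNCA, a TGACG on either strand lay just upstream, its first base 10 bp before that of the element in Hmgcs1, 20 bp in Cyp51 and 10 bp in Srebf2. The pair was noticed after the sequences were seen. Of 394 coding windows with TCACCNCA, 51 (12.9%) had TGACG starting within 25 bp. This share cannot test the pair, since the 3 promoters are those in which it was noticed and the limit takes in their distances. TGACG alone was found in 6 of the 7 windows, beside 35.7% of coding windows. The highest value of minus log10 FDR in the strongest promoter peaks ran from 30.9 for Cyp51 in replicate 1 to 204 for Fdft1 in replicate 2.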
